A study of Mus musculus with 21 samples.

Results

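Dendritic cells (DCs) sorted from lymph node were compared with DCs sorted from bone marrow of an Aire-reporter mouse strain, with 3 RNA sequencing libraries on each side out of 21 in the series. The libraries were chosen by their titles, as the AGF- DCs of lymph node and the total DCs of marrow from mice of genotype AGF-KI/+. All 6 came from C57BL/6 mice labelled male and 6 weeks old, and all carry 1 AGF-KI reporter allele beside 1 intact (+) allele, so that no wild-type cells without the reporter are on either side. Lymph node cells were released by enzymatic digestion and gated as CD45+CD11c+MHCII+ cells without the reporter signal (AGF-). Marrow cells were gated as B220-CD11c+MHCII+. Their titles read BMDC, total DC, while the design text names the AGF- fraction of marrow. The reporter gate on the marrow side is thus not settled. BMDC is not spelled out in the titles and can also stand for DCs grown from marrow in culture. Digestion is stated for lymph node only, and no culture step is stated for marrow, so culture of the marrow cells is not settled either. The labels do not say how many mice gave a library. Tissue, sort gate and cell preparation differ together in this comparison and cannot be told apart. The labels call the libraries independent biological replicates.

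DCs take up antigen, process it and show it to T cells. Conventional DCs (cDCs) arise from Flt3-dependent marrow precursors and settle in tissues as cDC1, which specialise in cross-presentation to CD8 T cells, and cDC2, which mainly prime CD4 T cells, while plasmacytoid DCs (pDCs) are known for type I interferon. Lymph nodes hold resident cDCs and DCs that arrived from peripheral tissue after a maturation programme that includes the chemokine receptor Ccr7. Marrow is where DC precursors form. Aire, the gene behind the reporter, encodes a regulator of transcription that drives the display of tissue antigens in thymus.

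Each library held 4392370 to 5911950 counts, and levels are given as CPM, the counts per 1000000 of the effective library size, so that 3 counts equal 0.607 to 0.668 CPM in lymph node AGF- DCs and 0.581 to 0.642 CPM in marrow total DCs. The first principal component of the 6 libraries held 79.0% of the variance and separated the tissues, and the next, with 6.57%, set marrow replicate 1 apart. Mitochondrially encoded transcripts took 1.61% to 2.31% of counts in lymph node AGF- DCs and 3.28% to 3.56% in marrow total DCs. Replicate 2 of both groups goes against its male label, with the female-specific transcript Xist at 3226 CPM in the lymph node library and 2028 CPM in the marrow library and with Y-linked genes at 0 and 0.206 CPM. In every other group of the series, too, replicate 2 was the library with high Xist. At an adjusted p under 0.05 (edgeR's quasi-likelihood test, Benjamini-Hochberg over 17265 genes), 4971 genes were higher and 4721 lower in lymph node AGF- DCs, which is 28.8% and 27.3% of the genes tested. Without replicate 2 of all 7 groups of the series, the same test called 3667 higher and 3528 lower. With all libraries and against a 1.5-fold change, it called 3013 higher and 2640 lower. Scaling by library size alone called 6496 higher and 3477 lower, or 65.1% of calls higher against 51.3% with TMM scaling, because it moved the median log2 fold change of all genes by 0.241. Counts of list members below are read against these shares and against the median log2 fold change of all genes tested, 0.053. Fold changes are lymph node AGF- over marrow total DCs with their standard errors. These errors were worked back from the test, as the size of the log2 fold change over the square root of its F value.

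Of 7 genes behind the sort gates of the series, 4 were higher, 2 lower and 1 did not pass in lymph node AGF- DCs. Ptprc, which encodes CD45, had 1606, 1649.7 and 1756 CPM in lymph node AGF- DCs, against 749, 879.8 and 877 CPM in marrow total DCs. Its groups did not overlap, as in 60.0% of all genes tested (log2 fold change 1.00 ± 0.13, adjusted p = 1.51e-06, edgeR). The lymph node gate selected CD45+ cells, while the marrow gate removed cells with B220, a form of CD45. The part of these gates in the difference was not tested. Itgax, which encodes CD11c, had 560.2, 498 and 392 CPM in lymph node AGF- DCs, against 602, 433 and 372 CPM in marrow total DCs, overlapped and did not pass (log2 fold change 0.04 ± 0.49, adjusted p = 0.947, edgeR). The MHC class II chain genes H2-Aa, H2-Ab1 and H2-Eb1, whose products were gated on in both tissues, were each higher in lymph node AGF- DCs, by 0.82 ± 0.11, 1.14 ± 0.14 and 0.89 ± 0.12 on the log2 scale. Cd24a (39.6, 60.7 and 66.6 against 263, 532 and 536 CPM) and Itgam, which encodes CD11b (32.7, 52.2 and 42.8 against 81.5, 148 and 115 CPM), were lower in lymph node AGF- DCs than in marrow total DCs, with log2 fold changes of -2.99 ± 0.32 and -1.43 ± 0.26. Neither was part of the gate of these 2 populations. In bulk libraries, fewer cells of a type and less RNA per cell cannot be told apart.

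Genes used as cDC markers were present on both sides at different levels. Flt3, the receptor for the growth factor on which DC development depends (GRCm38, chr5:147330741-147400489), had 478, 368 and 339 CPM in lymph node AGF- DCs, against 55.2, 31.2 and 21.3 CPM in marrow total DCs. Every lymph node library stood above every marrow library (log2 fold change 3.46 ± 0.24, adjusted p = 3.97e-10, edgeR). Zbtb46, a transcription factor of cDCs that is not confined to them, had 259.8, 231 and 179 CPM in lymph node AGF- DCs, against 171, 106 and 129 CPM in marrow total DCs. The groups did not overlap, but the fold was small (log2 fold change 0.73 ± 0.19, adjusted p = 0.00332, edgeR), and without replicate 2 of every group the gene did not pass (0.56, adjusted p = 0.0518). Aire itself (ENSMUSG00000000731, chr10:78030022-78043610) had 14.9, 14.2 and 14 CPM in lymph node AGF- DCs, against 1.28, 0.822 and 0.968 CPM in marrow total DCs, both low, and was higher in lymph node AGF- DCs (log2 fold change 3.78 ± 0.30, adjusted p = 2.54e-09, edgeR). The counts do not tell the reporter allele from the intact one.

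At least 2-fold changes were called in 18.6% of genes for higher and 14.5% for lower levels. The genes so called with a mean log2 CPM of at least 3 and groups that did not overlap were ranked by fold. Separate groups were thus a condition for the 12 largest rises and the 12 largest falls. The 12 largest rises in lymph node AGF- DCs were led by Adgre4, an adhesion receptor of myeloid cells (ENSMUSG00000032915, chr17:55749984-55853662). It had 192, 259 and 207 CPM in lymph node AGF- DCs, against 1.07, 0.206 and 0.387 CPM in marrow total DCs. The marrow libraries were near the level of a few counts, far below every lymph node library (log2 fold change 8.59 ± 0.38, adjusted p = 1.56e-12, edgeR). Synpo2, which encodes an actin-binding protein, had 843, 752 and 696 CPM in lymph node AGF- DCs, against 16.5, 4.93 and 3.87 CPM in marrow total DCs. Marrow replicate 1 was the highest of the marrow libraries and still far below lymph node (log2 fold change 6.52 ± 0.46, adjusted p = 5.04e-10, edgeR). In lymph node AGF- DCs of the Aire-deficient (AireKO) mice, which the comparison did not use, Adgre4 stood at 244, 207 and 232 CPM and Synpo2 at 226, 617 and 337 CPM.

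Others of the 12 encode surface receptors, channels and secreted proteins. Ace, the angiotensin-converting enzyme, had 129, 83.4 and 78.7 CPM in lymph node AGF- DCs, against 1.07, 1.23 and 0.968 CPM in marrow total DCs. Cacna1e, a subunit of a voltage-gated calcium channel, had 142, 70.7 and 114 CPM in lymph node AGF- DCs, against 0.214, 2.06 and 1.35 CPM in marrow total DCs. Their log2 fold changes were 6.45 ± 0.65 and 6.45 ± 0.52. Dnase1l3, an enzyme secreted by DCs and macrophages that degrades extracellular DNA, had 228, 223 and 292 CPM in lymph node AGF- DCs, against 6.42, 6.78 and 2.32 CPM in marrow total DCs (log2 fold change 5.59 ± 0.31, adjusted p = 2.61e-11, edgeR). Btla, an inhibitory receptor of lymphocytes and DCs, had 110.4, 116 and 133 CPM in lymph node AGF- DCs, against 1.07, 3.29 and 2.32 CPM in marrow total DCs (log2 fold change 5.72 ± 0.30, adjusted p = 1.09e-11, edgeR). The lymph node libraries were close together for both of these genes. Scube3, a secreted glycoprotein, Abca9, a transporter of the ABC family, and Ankrd35 rose by 5.94 ± 0.57, 5.62 ± 0.40 and 5.30 ± 0.38. Another 3 of the rises are also known from lymphocytes. Ripor2, a regulator of RhoA and cell polarity, had 178, 108 and 152 CPM in lymph node AGF- DCs, against 2.57, 2.88 and 2.71 CPM in marrow total DCs. Il2rb, a chain of the receptors for interleukin-2 and interleukin-15, had 154, 28.5 and 114 CPM in lymph node AGF- DCs, against 0.642, 4.52 and 0.774 CPM in marrow total DCs. Cd4, the coreceptor of helper T cells that resident cDC2 also carry, had 136, 65.6 and 124 CPM in lymph node AGF- DCs, against 0.642, 2.26 and 4.65 CPM in marrow total DCs. These 3 genes rose by 5.73 ± 0.27, 5.63 ± 0.75 and 5.39 ± 0.51, and lymph node replicate 2 was the lowest lymph node library for each. Genes of B, T and NK cells were also higher in lymph node AGF- DCs, with the counts and levels given below, and the part of such cells in these rises was not tested.

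The 12 largest falls were led by Ccl24, the eosinophil-attracting chemokine eotaxin 2 (ENSMUSG00000004814, chr5:135569937-135573049), which had 0.445, 2.23 and 1.27 CPM in lymph node AGF- DCs, against 599, 818 and 660.5 CPM in marrow total DCs. Every lymph node library was far below every marrow library (log2 fold change -8.99 ± 0.37, adjusted p = 7.10e-13, edgeR). Gpnmb, a membrane glycoprotein of the endolysosomes of macrophages and DCs, had 0.891, 1.21 and 0.212 CPM in lymph node AGF- DCs, against 231, 197 and 133 CPM in marrow total DCs. Asgr2, a subunit of the asialoglycoprotein receptor, had 1.78, 3.85 and 2.33 CPM in lymph node AGF- DCs, against 243, 489.9 and 378 CPM in marrow total DCs. Both fell, with log2 fold changes of -7.86 ± 0.83 and -7.10 ± 0.52. Chil3, a secreted chitinase-like protein of myeloid cells whose reads can be shared with the close paralogue Chil4, had 2.23, 1.01 and 1.06 CPM in lymph node AGF- DCs, against 250.04, 349.7 and 59 CPM in marrow total DCs, with marrow replicate 3 the lowest of the marrow libraries (log2 fold change -7.25 ± 0.90, adjusted p = 1.05e-06, edgeR). Vdr, the vitamin D receptor, had 4.68, 7.49 and 7.42 CPM in lymph node AGF- DCs, against 715, 524 and 510.5 CPM in marrow total DCs. Thbs1, the matrix protein thrombospondin 1, had 1.78, 3.64 and 1.06 CPM in lymph node AGF- DCs, against 379, 159 and 86.5 CPM in marrow total DCs. Marrow replicate 1 was the highest library for both of these, and their log2 fold changes were -6.47 ± 0.34 and -6.56 ± 0.61.

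The remaining falls came from lipid enzymes, a growth factor and genes of the cytoskeleton. Ptgs1, the cyclooxygenase 1 that starts prostaglandin synthesis, had 1.56, 1.42 and 1.48 CPM in lymph node AGF- DCs, against 82.8, 167 and 62.3 CPM in marrow total DCs, and Pla1a, a phospholipase that acts on phosphatidylserine, had 0.891, 1.42 and 0.636 against 50.1, 75.2 and 96.2 CPM in the same order. Nrg1, a growth factor of the epidermal growth factor family, had 2.67, 9.52 and 2.97 CPM in lymph node AGF- DCs, against 352, 301 and 304 CPM in marrow total DCs, with lymph node replicate 2 the highest of its group. Neb, which encodes the sarcomere protein nebulin, had 6.23, 5.87 and 10.4 CPM in lymph node AGF- DCs, against 399, 636 and 666 CPM in marrow total DCs. These 4 genes fell, with log2 fold changes of -6.11 ± 0.48, -6.19 ± 0.40, -5.95 ± 0.42 and -6.24 ± 0.39, and the guanine nucleotide exchange factor Mcf2l and the junction protein Cgnl1 fell too, with -6.05 ± 0.31 and -5.75 ± 0.35.

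**Figure D1:**
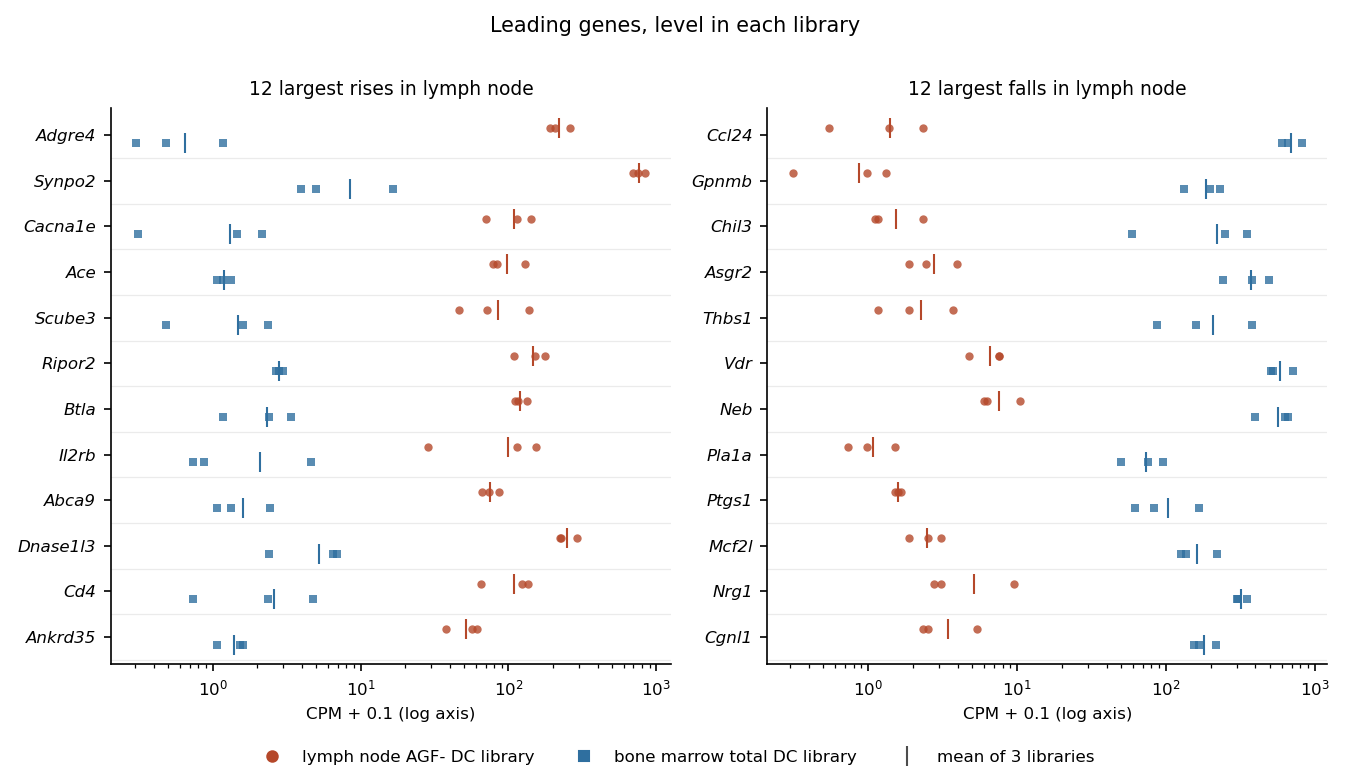
Level of the 12 largest rises and the 12 largest falls in lymph node AGF- DCs in each library, on a log axis of CPM plus 0.1. Circles are the lymph node libraries, squares the marrow libraries and vertical ticks the mean of the 3 libraries of a group; no gene has overlapping groups, which the choice of these genes required.

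DC subset genes were counted in lists of cDC1, cDC2, pDC and Langerhans cell markers. Of 19 cDC1 genes, 12 were higher, 2 lower and 5 did not pass in lymph node AGF- DCs, with a median log2 fold change of 1.29 (1 lower without lymph node replicate 2, marrow replicate 2 or marrow replicate 3). Clec9a, a receptor for dead cells that defines cDC1, had 47.6, 21.5 and 54.1 CPM in lymph node AGF- DCs, against 0.214, 0.206 and 0.968 CPM in marrow total DCs. Xcr1, the chemokine receptor of cDC1, had 35, 15.2 and 45.2 CPM in lymph node AGF- DCs, against 0.428, 2.06 and 1.74 CPM in marrow total DCs. The marrow libraries were at or near the level of a few counts for both, and the log2 fold changes were 6.36 ± 0.49 and 4.46 ± 0.45. Cadm1, an adhesion molecule of cDC1, and Tlr11, the sensor of profilin from protozoan parasites, rose by 4.79 ± 0.43 and 4.29 ± 0.28, and Ifi205 by 4.90 ± 0.51. Gcsam, listed at 0 counts in all 3 marrow libraries, had 12, 6.07 and 11 CPM in lymph node AGF- DCs, at least 47.1-fold higher against a floor of 3 counts over the marrow group. Lymph node replicate 2 was the lowest lymph node library for each of Clec9a, Xcr1, Cadm1, Ifi205 and Gcsam. Against the rest of the list, Hepacam2 had 5.57, 2.83 and 8.7 CPM in lymph node AGF- DCs, against 70.4, 91.7 and 145 CPM in marrow total DCs (log2 fold change -4.17 ± 0.43, adjusted p = 8.50e-08, edgeR). Irf8, the transcription factor of cDC1 and pDCs, was among the 5 members that did not pass, at 0.48 ± 0.32, and passed without marrow replicate 1 (0.85, adjusted p = 0.0371, edgeR).

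Among 17 cDC2 genes, 10 were higher, 4 lower and 3 did not pass (median 0.92). Tbx21, the transcription factor T-bet that marks a resident cDC2 state and also NK and T cells, had 18.9, 9.31 and 16.3 CPM in lymph node AGF- DCs and 0 counts in marrow total DCs, at least 72.1-fold higher. Esam, an adhesion molecule of resident Notch2-dependent cDC2, had 26.9, 22.1 and 15.3 CPM in lymph node AGF- DCs, against 7.91, 3.91 and 1.94 CPM in marrow total DCs. Sirpa, the inhibitory receptor that separates cDC2 from cDC1, had 704, 625 and 473 CPM in lymph node AGF- DCs, against 377, 298 and 278 CPM in marrow total DCs. Their groups did not overlap (2.24 ± 0.31 and 0.92 ± 0.18). In the other direction, Mgl2, a galactose-binding lectin of dermal cDC2 and macrophages, had 26.5, 33.6 and 30.5 CPM in lymph node AGF- DCs, against 419.7, 681 and 456 CPM in marrow total DCs, although reads of Mgl2 can be shared with its paralogue Clec10a (log2 fold change -4.10 ± 0.30, adjusted p = 8.98e-10, edgeR). Irf4, a transcription factor needed by migratory cDC2, had 176, 217 and 203 CPM in lymph node AGF- DCs, against 654, 599 and 648 CPM in marrow total DCs (log2 fold change -1.67 ± 0.17, adjusted p = 9.98e-08, edgeR). The counts of this list were 2 lower when any 1 library other than marrow replicate 1 was left out. They were 6 higher and 2 lower without replicate 2 of every group.

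Of 16 pDC genes, 12 were higher, 2 lower and 2 did not pass (median 2.07). Siglech, the defining pDC lectin, had 168, 36.6 and 147 CPM in lymph node AGF- DCs, against 9.63, 11.9 and 2.52 CPM in marrow total DCs. Lymph node replicate 2 was far below the other 2 lymph node libraries and above every marrow library (log2 fold change 3.88 ± 0.62, adjusted p = 2.36e-05, edgeR). Ly6d, shared with early B cells, had 40.5, 31 and 49.6 CPM in lymph node AGF- DCs, against 1.07, 0.206 and 0.387 CPM in marrow total DCs. The pDC transcription factor genes Bcl11a, Runx2 and Spib and the chemokine receptor gene Ccr9 rose by 2.27 ± 0.25, 2.03 ± 0.25, 2.10 ± 0.26 and 1.64 ± 0.26, while Tcf4, which encodes the master regulator of pDCs, was among the 2 lower members at -0.49 ± 0.14. The 2 lower members did not pass without replicate 2 of every group. Only 1 was lower when replicate 2 of either compared group alone was left out. The marrow gate removed cells with B220, which pDCs carry, and the lymph node gate did not. Of 6 Langerhans cell genes, 5 were tested, with 1 higher, 2 lower and 2 not passing. Cd207, the lectin langerin, was 14.2-fold (95% counting interval 4.53 to 71.7) higher on 41 counts in lymph node AGF- DCs against 3 in marrow total DCs. Cdh1, which encodes E-cadherin, had 17.6, 8.91 and 23.8 CPM in lymph node AGF- DCs, against 174, 429.6 and 252 CPM in marrow total DCs (log2 fold change -4.09 ± 0.38, adjusted p = 1.94e-08, edgeR), and Mfge8, which bridges dying cells to phagocytes, fell, with a log2 fold change of -1.45 ± 0.28.

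The list of 41 genes of mature migratory Ccr7 DCs moved in both directions, with 18 higher, 14 lower and 9 not passing (median 0.32). This balance depended on single libraries. It was 19 higher and 10 lower without marrow replicate 1 and 14 higher and 16 lower without marrow replicate 2. Without replicate 2 of every group it was 13 higher and 14 lower. Ccr7, which guides DCs through lymph vessels into lymph node, had 449, 421 and 299 CPM in lymph node AGF- DCs, against 1229, 590.2 and 596 CPM in marrow total DCs. It was lower in lymph node AGF- DCs (log2 fold change -1.05 ± 0.31, adjusted p = 0.00708, edgeR), but marrow replicate 1 was high, and without that library the gene did not pass (-0.63, adjusted p = 0.0783). Fscn1, the actin bundler of mature DC dendrites, had 1511, 1269.5 and 1179 CPM in lymph node AGF- DCs, against 764, 458 and 454 CPM in marrow total DCs, and Relb, the NF-kB subunit of mature DCs, had 659.5, 557 and 361 against 216, 118 and 109 CPM in the same order. Both were higher in every lymph node library (1.24 ± 0.25 and 1.83 ± 0.26). Slco5a1, a transporter of the organic anion family, the enolase gene Eno2, Apol7c, an apolipoprotein L gene of DCs, and Il15ra, which presents interleukin-15, rose by 3.07 ± 0.35, 3.04 ± 0.28, 2.29 ± 0.42 and 2.22 ± 0.27.

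Besides Ccr7, the 14 lower members held the chemokines Ccl17 and Ccl22, the enzyme Aldh1a2 and the costimulation and checkpoint ligands Cd80, Cd86, Cd274 and Pdcd1lg2, whose values follow. Ccl17, a ligand of Ccr4, had 10.7, 16 and 20.8 CPM in lymph node AGF- DCs, against 695, 825 and 855 CPM in marrow total DCs. Ccl22, the other ligand of Ccr4, had 379, 319 and 261 CPM in lymph node AGF- DCs, against 2508, 1862 and 1857 CPM in marrow total DCs. Lymph node libraries stood below all marrow libraries for both (log2 fold change -5.64 ± 0.34, adjusted p = 7.17e-11 for Ccl17 and -2.70 ± 0.36 for Ccl22, edgeR). Aldh1a2, the enzyme that makes retinoic acid, had 24.9, 29.2 and 27.6 CPM in lymph node AGF- DCs, against 894, 289 and 425 CPM in marrow total DCs, with marrow replicate 1 again the highest (log2 fold change -4.30 ± 0.71, adjusted p = 3.25e-05, edgeR).

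**Figure D2:**
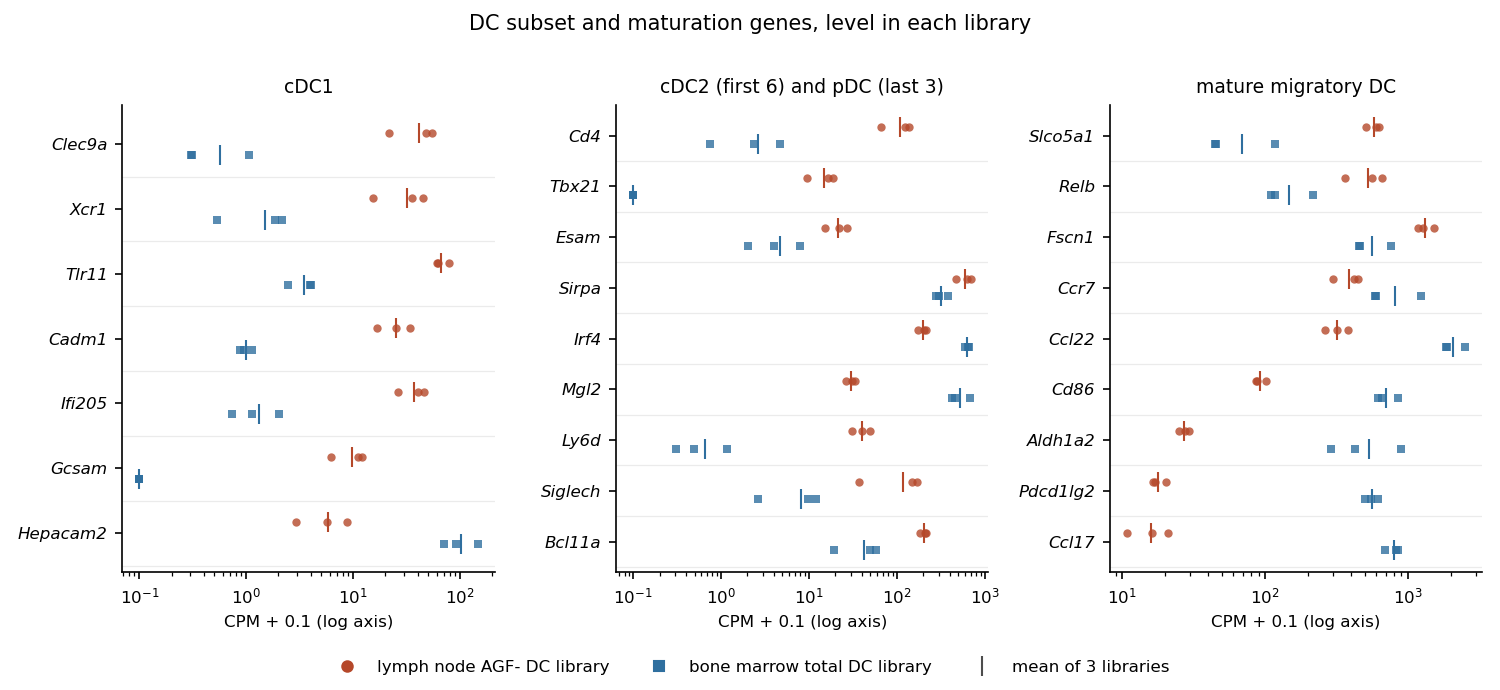
Level of genes of cDC1, cDC2, pDC and mature migratory DCs in each library, on a log axis of CPM plus 0.1, with circles for lymph node AGF- DCs, squares for marrow total DCs and ticks for group means. Most subset markers sit further right in lymph node AGF- DCs, with Hepacam2, Irf4 and Mgl2 the other way, while the mature genes split from Slco5a1, Relb and Fscn1 on top to Pdcd1lg2 and Ccl17 at the bottom.

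Costimulation and checkpoint ligands were mostly lower in lymph node AGF- DCs, with 10 of 18 lower, 6 higher and 2 not passing (median -0.94). Pdcd1lg2, which encodes the PD-1 ligand PD-L2 (ENSMUSG00000016498, chr19:29410919-29471161), had 20, 16.8 and 16.3 CPM in lymph node AGF- DCs, against 613, 502 and 555 CPM in marrow total DCs. The 3 libraries of each group were close (log2 fold change -4.97 ± 0.19, adjusted p = 3.70e-13, edgeR). Cd86 and Cd80, the ligands of CD28, had 88.2, 101 and 85.9 against 658, 612 and 846 CPM and 40.5, 61.6 and 47.1 against 201, 260.2 and 392 CPM, lymph node AGF- DCs first, and fell, with log2 fold changes of -2.94 ± 0.25 and -2.51 ± 0.22. Cd274, which encodes PD-L1, had 218, 271 and 294 CPM in lymph node AGF- DCs, against 728, 547 and 725 CPM in marrow total DCs (log2 fold change -1.35 ± 0.20, adjusted p = 7.28e-06, edgeR). Its log2 difference was smaller than that of Pdcd1lg2. Nectin2, an adhesion ligand of T cell and NK cell receptors, and Tnfsf4, the OX40 ligand, fell, with log2 fold changes of -4.17 ± 0.21 and -4.22 ± 0.36. Icosl, the ligand of ICOS on follicular helper T cells, went the other way with 438, 446 and 323 CPM in lymph node AGF- DCs, against 47.3, 57.6 and 43 CPM in marrow total DCs (log2 fold change 3.03 ± 0.22, adjusted p = 6.13e-10, edgeR).

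Of 21 chemokine ligand genes 17 were tested, with 5 higher, 8 lower and 4 not passing (median -0.86). Cxcl3, a neutrophil attractant, rested on 1 count in lymph node AGF- DCs against 375 in marrow total DCs, 361-fold (95% counting interval 64.3 to 14284) lower. Cxcl16, the ligand of Cxcr6, had 552, 485 and 516 CPM in lymph node AGF- DCs, against 292, 141 and 137 CPM in marrow total DCs, and Cxcl9, a ligand of Cxcr3 induced by interferon-gamma, had 62.3, 54.5 and 58.1 against 4.92, 14.8 and 3.48 CPM in the same order. Both rose (1.45 ± 0.30 and 2.91 ± 0.66). Xcl1, the Xcr1 ligand made by NK and CD8 T cells, had 8.68, 1.82 and 7.85 CPM in lymph node AGF- DCs and 0 counts in marrow total DCs, at least 29.5-fold higher.

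Among chemokine receptors, 16 of 19 were tested, with 9 higher, 5 lower and 2 not passing (median 1.00). Cx3cr1, the fractalkine receptor, had 81.9, 52.6 and 67 CPM in lymph node AGF- DCs, against 1.07, 0.411 and 0.387 CPM in marrow total DCs (log2 fold change 6.72 ± 0.54, adjusted p = 3.03e-09, edgeR). Cxcr3, a receptor for interferon-induced chemokines, was 216-fold (95% counting interval 38.4 to 8582) higher, on 208 counts in lymph node AGF- DCs against 1 in marrow total DCs. Ccr1, a receptor for inflammatory CC chemokines, and Cxcr2, the receptor of neutrophil attractants, were lower, with 6.23, 6.88 and 5.09 against 66.3, 90.7 and 70.7 CPM for Ccr1 and 0.223, 2.02 and 0.848 against 32.5, 59 and 72.6 CPM for Cxcr2, lymph node AGF- DCs first. The groups of both did not overlap (-3.64 ± 0.39 and -5.67 ± 0.75).

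Cytokine genes were higher more often than lower, with 8 of the 16 tested of 20 higher, 3 lower and 5 not passing (median 0.91). Il1b, which encodes interleukin-1 beta, had 18.5, 49 and 26.7 CPM in lymph node AGF- DCs, against 1.71, 5.76 and 1.16 CPM in marrow total DCs (log2 fold change 3.45 ± 0.42, adjusted p = 7.81e-07, edgeR). Il16, a chemoattractant for CD4 cells, rose by 2.13 ± 0.25. Il6, an inflammatory cytokine, had 0.445, 1.01 and 0.848 CPM in lymph node AGF- DCs, against 29.9, 29.6 and 31.9 CPM in marrow total DCs (log2 fold change -5.25 ± 0.39, adjusted p = 9.78e-10, edgeR). Its lymph node values were at a few counts a library. Osm, oncostatin M of the same cytokine family, fell, with a log2 fold change of -2.44 ± 0.23.

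MHC class II presentation genes were mostly higher, with 13 of 18 higher, 4 lower and 1 not passing (median 0.73). H2-Oa, a chain of H2-O, which tempers peptide loading, had 41, 52.4 and 44.1 CPM in lymph node AGF- DCs, against 5.99, 4.32 and 3.68 CPM in marrow total DCs. It had the largest rise of the list (log2 fold change 3.30 ± 0.23, adjusted p = 4.40e-10, edgeR). March1, the ubiquitin ligase that shortens the surface life of MHC class II and CD86, had 115, 113 and 130.02 CPM in lymph node AGF- DCs, against 35.9, 40.1 and 23.8 CPM in marrow total DCs, and the lysosomal thiol reductase gene Ifi30 had 626, 719 and 785 against 447, 358 and 334 CPM in the same order (1.84 ± 0.27 and 0.90 ± 0.18). Among the falls were Ctsl, a cathepsin that degrades the invariant chain, at -2.34 ± 0.38, and H2-DMb2, a chain of the peptide exchange factor H2-DM, at -0.80 ± 0.15. H2 genes have close paralogues among which reads can be split. Of 13 MHC class I genes, 4 were higher, 2 lower and 7 did not pass (median 0.36, and 0.21 without marrow replicate 3), with H2-K1 and the class I transactivator gene Nlrc5 higher (0.69 ± 0.12 and 1.11 ± 0.23) and the peptide-loading chaperone genes Pdia3 and Calr lower (-1.32 ± 0.18 and -0.96 ± 0.14). Scaling by library size alone called 8 class I genes higher.

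Of 22 DC transcription factor genes, 10 were higher, 5 lower and 7 did not pass (median 0.53). Nfil3, a factor upstream of cDC1 fate and of innate lymphoid cells, had 11.6, 9.72 and 16.5 CPM in lymph node AGF- DCs, against 365, 241 and 225 CPM in marrow total DCs. The groups lay far apart (log2 fold change -4.45 ± 0.21, adjusted p = 3.74e-12, edgeR). Klf2, a factor of quiescence and trafficking in lymphocytes, had 25.6, 27.7 and 35.2 CPM in lymph node AGF- DCs, against 3.21, 3.08 and 2.32 CPM in marrow total DCs and was higher (log2 fold change 3.36 ± 0.26, adjusted p = 1.75e-09, edgeR). Without replicate 2 of every group, 6 of the list were higher and 3 lower. Growth factor receptors gave 7 higher, 4 lower and 1 not passing of 12 (median 0.87). Csf3r, the receptor of granulocyte colony-stimulating factor, had 58.6, 67.4 and 53 CPM in lymph node AGF- DCs, against 9.41, 2.26 and 3.87 CPM in marrow total DCs, and Tgfbr2, a chain of the TGF-beta receptor, had 152, 142 and 146 against 25, 48.5 and 30.8 CPM in the same order (3.53 ± 0.33 and 2.08 ± 0.20). Csf2rb, the shared beta chain of the receptors for GM-CSF, interleukin-3 and interleukin-5, had 886, 821 and 592 CPM in lymph node AGF- DCs, against 2152, 1502 and 1303 CPM in marrow total DCs and was lower (log2 fold change -1.11 ± 0.19, adjusted p = 4.26e-05, edgeR).

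Innate sensors were higher in 13 of 22 genes, lower in 2 and did not pass in 7 (median 0.87). Tlr9 and Tlr7, the endosomal sensors of DNA and RNA, had 328, 308 and 348 against 86.6, 60.8 and 41.8 CPM and 37.4, 30.8 and 34.6 against 4.28, 2.06 and 0.968 CPM, lymph node AGF- DCs first. Both were higher in every lymph node library (2.38 ± 0.19 and 3.82 ± 0.45). Tlr1, a partner of Tlr2 in sensing lipopeptides, and Nod1, a cytosolic sensor of peptidoglycan, rose by 2.51 ± 0.19 and 3.29 ± 0.27. Tlr4, the sensor of lipopolysaccharide, had 8.24, 13 and 11.7 CPM in lymph node AGF- DCs, against 65, 96.4 and 144 CPM in marrow total DCs (log2 fold change -3.21 ± 0.34, adjusted p = 1.23e-07, edgeR). Nlrp3, the inflammasome sensor, fell, with a log2 fold change of -1.66 ± 0.27. Without marrow replicate 1, 4 sensors were lower. Of 20 NF-kB pathway genes, 14 were higher, 4 lower and 2 did not pass (median 0.65, 9 higher without replicate 2 of every group). The inhibitors Nfkbie and Tnfaip3 rose by 2.05 ± 0.16 and 1.76 ± 0.18, and the subunit gene Nfkb1 had 519, 521 and 478 CPM in lymph node AGF- DCs, against 1459.8, 1231 and 1421 CPM in marrow total DCs (log2 fold change -1.44 ± 0.10, adjusted p = 3.48e-10, edgeR).

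C-type lectin receptors split, with 7 higher, 6 lower and 6 not passing of 19 (median 0.15, between -0.06 without marrow replicate 1 and 0.29 without lymph node replicate 1). Cd209b, a SIGN-R family lectin, had 49.9, 10.9 and 53 CPM in lymph node AGF- DCs and 0 counts in marrow total DCs, at least 183-fold higher. Cd209d had 88, 78.4 and 84.2 CPM in lymph node AGF- DCs, against 0.428, 2.88 and 3.68 CPM in marrow total DCs (log2 fold change 5.13 ± 0.47, adjusted p = 4.80e-08, edgeR). Reads of the Cd209 paralogues can be split between them. Clec4n, which encodes Dectin-2, and Ly75, which encodes the endocytic receptor DEC-205, were lower (-2.67 ± 0.48 and -1.52 ± 0.18). Interferon-stimulated genes gave 8 higher, 4 lower and 14 not passing of 26, a share called of 46.2% against 56.1% of all genes, with a median of 0.12, between 0.01 without marrow replicate 1 and 0.22 without marrow replicate 3. Mx1, an antiviral GTPase, was higher (472, 469 and 379 against 176, 106 and 94.9 CPM) and Oasl2 lower (112, 121 and 109.9 against 199.99, 361 and 386 CPM), lymph node AGF- DCs first (1.81 ± 0.25 and -1.47 ± 0.39). Without marrow replicate 1 or marrow replicate 3, 5 were higher. Adhesion and egress genes gave 8 higher, 3 lower and 6 not passing of 17 (median 0.47). S1pr3, a receptor of sphingosine-1-phosphate, and the integrin gene Itgb1 fell, with log2 fold changes of -3.57 ± 0.30 and -1.56 ± 0.15.

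Genes of other cell types were measured because the gates could hold such cells. All 15 B cell genes were higher in lymph node AGF- DCs (median 4.51), with summed levels of 495 to 1110 CPM in lymph node AGF- DCs and 59.2 to 65 CPM in marrow total DCs. The marrow gate removed cells with B220, which B cells also carry, and the lymph node gate did not. This direction is thus favoured by the gates, and their part in it was not tested. Ms4a1, which encodes CD20, had 37.4, 97.8 and 73.2 CPM in lymph node AGF- DCs, against 0.214, 0.411 and 0.387 CPM in marrow total DCs. Ms4a1 and Pax5, the B lineage factor, rose by 7.58 ± 0.67 and 6.93 ± 0.61, and Cd79a, a chain of the B cell receptor complex, was 162-fold (95% counting interval 55.2 to 789) higher. Lymph node replicate 2 was the highest library for Ms4a1, Pax5 and Cd79a. Antigen receptor segments took 0.123% to 0.191% of counts in lymph node AGF- DCs and 0.00286% to 0.00816% in marrow total DCs. Of 19 T and NK cell genes, 14 were higher and the other 5 did not pass in edgeR's test (median 3.42), while limma voom called 3 of the list lower and edgeR without the filter on low counts 4. Left out singly, lymph node replicate 3 gave 2 lower members and marrow replicates 1 and 2 gave 1 each. Summed levels overlapped, at 414 to 999 CPM in lymph node AGF- DCs and 428 to 838 CPM in marrow total DCs. Il7r, the receptor chain for interleukin-7 that mature DCs also carry, held a large part of these sums, with 250.3, 204 and 336 CPM in lymph node AGF- DCs, against 612, 226 and 330.1 CPM in marrow total DCs (log2 fold change -0.56 ± 0.27, adjusted p = 0.0764, edgeR). It was lower in lymph node AGF- DCs without lymph node replicate 3 (-0.76, adjusted p = 0.0398) or marrow replicate 2 (-0.85, adjusted p = 0.00771). Thy1, a surface marker of T cells, had 27.4, 5.87 and 38.4 CPM in lymph node AGF- DCs, against 13.5, 83.3 and 40.1 CPM in marrow total DCs, and its groups overlapped (log2 fold change -0.94 ± 0.58, adjusted p = 0.176, edgeR, and -1.39, adjusted p = 0.0396, without marrow replicate 1).

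Some other members of the list were at or near 0 in marrow total DCs. Ncr1, the NK receptor NKp46, had 46.8, 5.47 and 31.8 CPM in lymph node AGF- DCs and 0 counts in marrow total DCs, at least 134-fold higher, and Klrb1c, which encodes NK1.1, had 28.3, 2.83 and 27.4 CPM and 0 counts, at least 93.6-fold higher. Cd3e, a chain of the T cell receptor complex, had 14, 6.88 and 65.3 CPM in lymph node AGF- DCs, against 0.428, 0.411 and 0 CPM in marrow total DCs. Gzma, a granzyme, and Lck, a kinase of T and NK cells, rose by 6.46 ± 1.15 and 6.61 ± 0.87. Lymph node replicate 2 was the lowest lymph node library for all 5 of these genes. Of 12 genes of group 3 innate lymphoid cells, 10 were tested, with 4 higher, 2 lower and 4 not passing (median 0.16, between 0.04 without marrow replicate 3 and 0.51 without marrow replicate 1). Without lymph node replicate 3, 3 were lower, while the lower members did not pass without replicate 2 of every group. Only 1 was lower when replicate 2 of either compared group alone was left out. The part of B, T, NK or innate lymphoid cells in the differences given above was not tested.

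Monocyte genes moved in both directions, with 8 higher, 4 lower and 5 not passing of 17 (median 0.84). The higher members held Cx3cr1 and Ace, both given above, with log2 fold changes of 6.72 and 6.45. Lyz2, which encodes lysozyme and can share reads with Lyz1, had 1056, 1365 and 1300 CPM in lymph node AGF- DCs, against 85.3, 66 and 24.2 CPM in marrow total DCs (log2 fold change 4.41 ± 0.43, adjusted p = 4.18e-08, edgeR). Fcgr3, an activating Fc receptor with close paralogues, had 16.3, 19.2 and 24 CPM in lymph node AGF- DCs, against 212, 357 and 309.7 CPM in marrow total DCs (log2 fold change -3.88 ± 0.52, adjusted p = 2.68e-06, edgeR). Vcan, a matrix proteoglycan of classical monocytes, fell, with a log2 fold change of -4.15 ± 0.61. Of 18 macrophage genes 15 were tested, with 6 higher, 6 lower and 3 not passing. Mertk, a receptor for dying cells, had 3.12, 3.64 and 3.39 CPM in lymph node AGF- DCs, against 92, 117 and 118 CPM in marrow total DCs (log2 fold change -5.00 ± 0.40, adjusted p = 2.68e-09, edgeR), and Adgre1, which encodes F4/80, had 139, 112 and 122 against 411, 681 and 502 CPM in the same order (-2.09 ± 0.25). In the other direction, Vcam1, an adhesion molecule of resident macrophages and endothelium, rose by 3.39 ± 0.28, and Timd4, a phosphatidylserine receptor, was 159.6-fold (95% counting interval 43.8 to 1324) higher. The median of this list, 0.14, lay between -0.11 without lymph node replicate 1 and 0.39 without lymph node replicate 2.

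Genes of granulocytes were more often lower than higher in lymph node AGF- DCs. Only 6 of 19 neutrophil genes passed the filter on low counts, with 1 higher, 3 lower and 2 not passing, and summed levels were 59.4 to 73.1 CPM in lymph node AGF- DCs and 161 to 445 CPM in marrow total DCs. The higher member was Csf3r, given above (log2 fold change 3.53), which made up most of the lymph node sums. Chil3, with 250.04, 349.7 and 59 CPM in marrow total DCs, held a large part of the marrow sums. These sums are thus not a measure of neutrophils alone. The lower members were Chil3, Cxcr2 and Mpo. Mpo, myeloperoxidase of granulocyte precursors, had 0, 0.202 and 0.212 CPM in lymph node AGF- DCs, against 93, 3.29 and 12.4 CPM in marrow total DCs. Marrow replicate 1 held most of those counts, and Ly6g, the marker of mature neutrophils, was at 0 in every library but marrow replicate 1, where it was 0.214 CPM. Of 12 eosinophil, basophil and mast cell genes 7 were tested, with 1 higher and 6 lower (median -2.33). The higher member did not pass when replicate 2 or 3 of either group was left out. Prg2, the eosinophil major basic protein, had 1.11, 0.607 and 0.212 CPM in lymph node AGF- DCs, against 106, 87.8 and 41.2 CPM in marrow total DCs (log2 fold change -6.89 ± 0.57, adjusted p = 4.43e-09, edgeR). Epx, eosinophil peroxidase, was 231-fold (95% counting interval 78.6 to 1120.5) lower. Summed levels of this list were 15.4 to 16.5 CPM in lymph node AGF- DCs and 123 to 258 CPM in marrow total DCs.

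Progenitor genes gave 4 higher, 6 lower and 4 not passing among 14 tested of 15 (median 0.18, between -0.19 without marrow replicate 3 and 0.46 without marrow replicate 1). Tal1, a factor of stem cells and erythroid precursors, was 95.2-fold (95% counting interval 16.7 to 3799) lower on 1 count in lymph node AGF- DCs against 99 in marrow total DCs, and Gata2, a factor of progenitors and mast cells, fell, with a log2 fold change of -3.41 ± 0.73. Hlf, a factor of haematopoietic stem cells, had 6.23, 2.43 and 11.2 CPM in lymph node AGF- DCs, against 0.642, 0 and 0.387 CPM in marrow total DCs and was higher (log2 fold change 4.19 ± 0.79, adjusted p = 0.000151, edgeR). Without lymph node replicate 1, 3 members were lower. Haemoglobin genes were at or near 0 in all 6 libraries, and only 4 of 15 erythroid and megakaryocyte genes were tested, with 1 higher, 1 lower and 2 not passing. The higher member did not pass without lymph node replicate 1 or 3 or marrow replicate 1 or 2. The lower one was Car2, carbonic anhydrase 2, with 21.2, 7.29 and 13.2 CPM in lymph node AGF- DCs, against 152, 231 and 234 CPM in marrow total DCs (log2 fold change -3.90 ± 0.32, adjusted p = 4.56e-09, edgeR). Of 15 stromal and endothelial genes 8 were tested, with 4 higher, 1 lower and 3 not passing (median 1.69, with 0.68 without lymph node replicate 3, 2.65 without marrow replicate 2 and 4.41 without replicate 2 of every group). Kdr, the VEGF receptor 2 of endothelium, had 43.4, 38.5 and 26.5 CPM in lymph node AGF- DCs, against 2.14, 3.08 and 1.16 CPM in marrow total DCs, Cdh5, which encodes VE-cadherin, was 51.3-fold (95% counting interval 17.2 to 252) higher, and Cxcl12, a chemokine of marrow stroma, fell, with a log2 fold change of -3.93 ± 0.71. The part of these cell types in other differences was not tested.

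**Figure D3:**
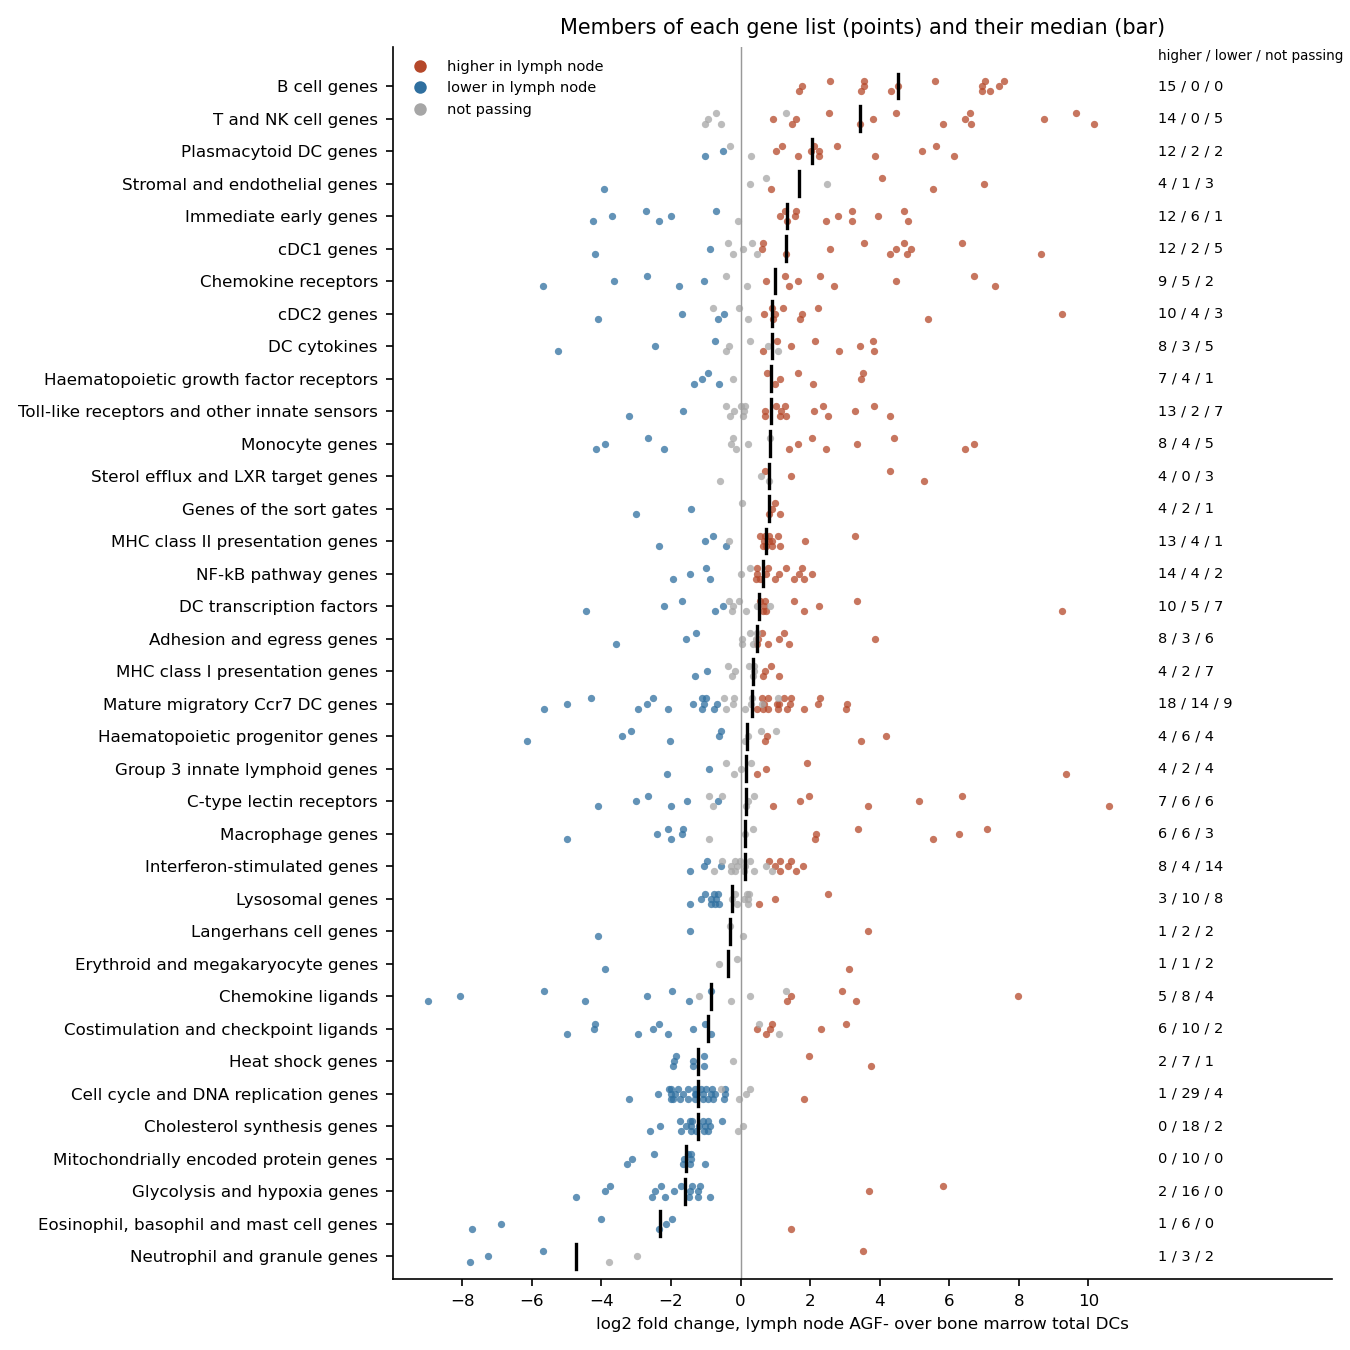
Log2 fold change of each tested member of 37 gene lists, lymph node AGF- over marrow total DCs, with black bars at list medians and counts of members higher, lower and not passing at the right. B cell genes (median 4.51) lie at the top and glycolysis, eosinophil and neutrophil genes at the bottom; points beyond 8 among the rises, such as Ncr1 and Cd209b, and Cxcl3 among the falls rest on groups with few or no counts, where the fitted fold depends on the prior count.

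Genes of glycolysis and the hypoxia response were lower in 16 of 18 members and higher in 2 (median -1.61). Pgk1, the phosphoglycerate kinase of glycolysis (ENSMUSG00000062070, chrX:106187100-106203699), had 29.6, 23.7 and 27.1 CPM in lymph node AGF- DCs, against 372, 375 and 339 CPM in marrow total DCs. The libraries of each group were close together and the groups far apart (log2 fold change -3.76 ± 0.21, adjusted p = 2.93e-11, edgeR). Ldha, the lactate dehydrogenase subunit, and Pkm, pyruvate kinase, had 186, 146 and 176 against 790.1, 1110.5 and 914 CPM and 229, 201 and 216 against 976, 1198 and 1004 CPM, lymph node AGF- DCs first (-2.47 ± 0.20 and -2.30 ± 0.16). Eno1, a glycolytic enolase, fell, with a log2 fold change of -1.92 ± 0.20. Glycolytic enzymes have processed copies in the genome, among which reads can be split. Egln3, a prolyl hydroxylase that marks HIF for degradation and is itself induced by hypoxia, had 2, 0.81 and 4.24 CPM in lymph node AGF- DCs, against 41.7, 75 and 69.9 CPM in marrow total DCs. Vegfa, the hypoxia-induced vascular growth factor, had 7.57, 11.1 and 6.58 CPM in lymph node AGF- DCs, against 211, 88.4 and 76.7 CPM in marrow total DCs, with marrow replicate 1 the highest. The log2 fold changes were -4.72 ± 0.43 and -3.88 ± 0.33. The 2 members that rose were Pfkfb3, an enzyme that makes the activator of phosphofructokinase, with 1368, 1372 and 983 CPM in lymph node AGF- DCs, against 135, 84.5 and 71 CPM in marrow total DCs (log2 fold change 3.68 ± 0.32, adjusted p = 7.60e-09, edgeR), and Adm, the peptide adrenomedullin, 63.4-fold (95% counting interval 21.4 to 310.4) higher.

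Hypoxia-inducible factors bind DNA at a core of the letters ACGTG. Promoters of the list were therefore searched on both strands for ACGTG in the RefSeq windows of GRCm38.p6, from 250 bases before to 50 after the transcription start. A match was found for 13 of the 16 lower members and 1 of the 2 higher members, against 28.5% of the 11041 tested genes with such a window and 19.6% of all 32851 windows. The list was drawn up to hold genes of the hypoxia response, which favours an excess over all genes. Nothing about the comparison of the tissues is read from it. Windows of 3 genes that fell and of Pfkfb3, which rose, are shown to let the letters be compared, with matches of ACGTG or its reverse complement CACGT, which overlap in CACGTG, in capitals. Ldha and Pfkfb3 have 2 listed start sites each, of which the first is shown. The second window of Ldha holds 0 matches and that of Pfkfb3 holds 1. Egln3 lies on the minus strand at chr12:54203825-54204124, Ldha on the plus strand at chr7:46845554-46845853, Pgk1 on the plus strand at chrX:106186850-106187149 and Pfkfb3 on the minus strand at chr2:11502041-11502340, each written 5′ to 3′ along its gene.
Egln3: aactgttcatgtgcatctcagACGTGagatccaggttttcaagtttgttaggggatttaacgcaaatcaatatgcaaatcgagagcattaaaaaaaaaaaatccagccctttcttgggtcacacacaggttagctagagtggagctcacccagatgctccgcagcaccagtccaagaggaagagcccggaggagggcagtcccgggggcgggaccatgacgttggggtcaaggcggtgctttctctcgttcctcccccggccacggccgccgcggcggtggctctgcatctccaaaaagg
Ldha: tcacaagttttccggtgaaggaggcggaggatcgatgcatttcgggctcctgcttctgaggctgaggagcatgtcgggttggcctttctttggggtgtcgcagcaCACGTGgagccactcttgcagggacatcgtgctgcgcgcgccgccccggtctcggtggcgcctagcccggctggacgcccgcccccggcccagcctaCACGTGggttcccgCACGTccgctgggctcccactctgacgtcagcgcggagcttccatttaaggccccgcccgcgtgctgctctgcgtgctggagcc
Pgk1: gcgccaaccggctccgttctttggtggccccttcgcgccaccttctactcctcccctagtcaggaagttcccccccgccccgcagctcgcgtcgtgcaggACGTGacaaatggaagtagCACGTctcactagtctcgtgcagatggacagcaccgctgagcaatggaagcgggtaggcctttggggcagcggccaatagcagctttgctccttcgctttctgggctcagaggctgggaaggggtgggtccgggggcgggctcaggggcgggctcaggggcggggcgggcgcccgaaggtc
Pfkfb3: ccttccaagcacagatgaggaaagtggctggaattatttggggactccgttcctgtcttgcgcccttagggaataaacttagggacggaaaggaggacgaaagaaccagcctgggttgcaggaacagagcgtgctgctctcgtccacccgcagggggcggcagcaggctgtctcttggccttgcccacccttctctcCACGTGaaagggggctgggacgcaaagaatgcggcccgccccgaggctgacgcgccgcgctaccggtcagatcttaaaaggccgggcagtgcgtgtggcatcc
A match says only that the letters are in the window. Both Pgk1, which fell (log2 fold change -3.76), and Pfkfb3, which rose (log2 fold change 3.68), hold it.

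Of 21 cholesterol synthesis genes 20 were tested, of which 18 were lower and 2 did not pass (median -1.23). Idi1, which isomerises the isoprene unit, had 15.1, 19.2 and 17 CPM in lymph node AGF- DCs, against 102, 113 and 95.2 CPM in marrow total DCs. Stard4, a sterol carrier, had 28.9, 21.5 and 18.2 CPM in lymph node AGF- DCs, against 99, 122 and 117 CPM in marrow total DCs. The groups did not overlap (-2.59 ± 0.26 and -2.30 ± 0.17), and the sterol synthesis enzyme Msmo1 fell, with a log2 fold change of -1.73 ± 0.18. Sterol efflux and LXR target genes gave 4 higher and 3 not passing among 7 tested of 8 (median 0.83, with 1.41 without marrow replicate 2 and 1.49 without replicate 2 of every group). Apoe, the lipid carrier apolipoprotein E, had 83.5, 81 and 92.1 CPM in lymph node AGF- DCs, against 2.14, 2.67 and 1.74 CPM in marrow total DCs. Nr1h3, which encodes LXR alpha, had 26.7, 26.1 and 16.8 against 1.07, 0.822 and 1.55 CPM and Nr1h2, which encodes LXR beta, had 85.9, 76.3 and 85.1 against 39.6, 29.4 and 21.9 CPM, lymph node AGF- DCs first. All 3 genes were higher without overlap (5.28 ± 0.58, 4.30 ± 0.38 and 1.45 ± 0.21). The letters CACCCCAC, a form of the sterol regulatory element, were in the window of 1 of 11 lower cholesterol genes with one, against 4.03% of tested genes.

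**Figure D4:**
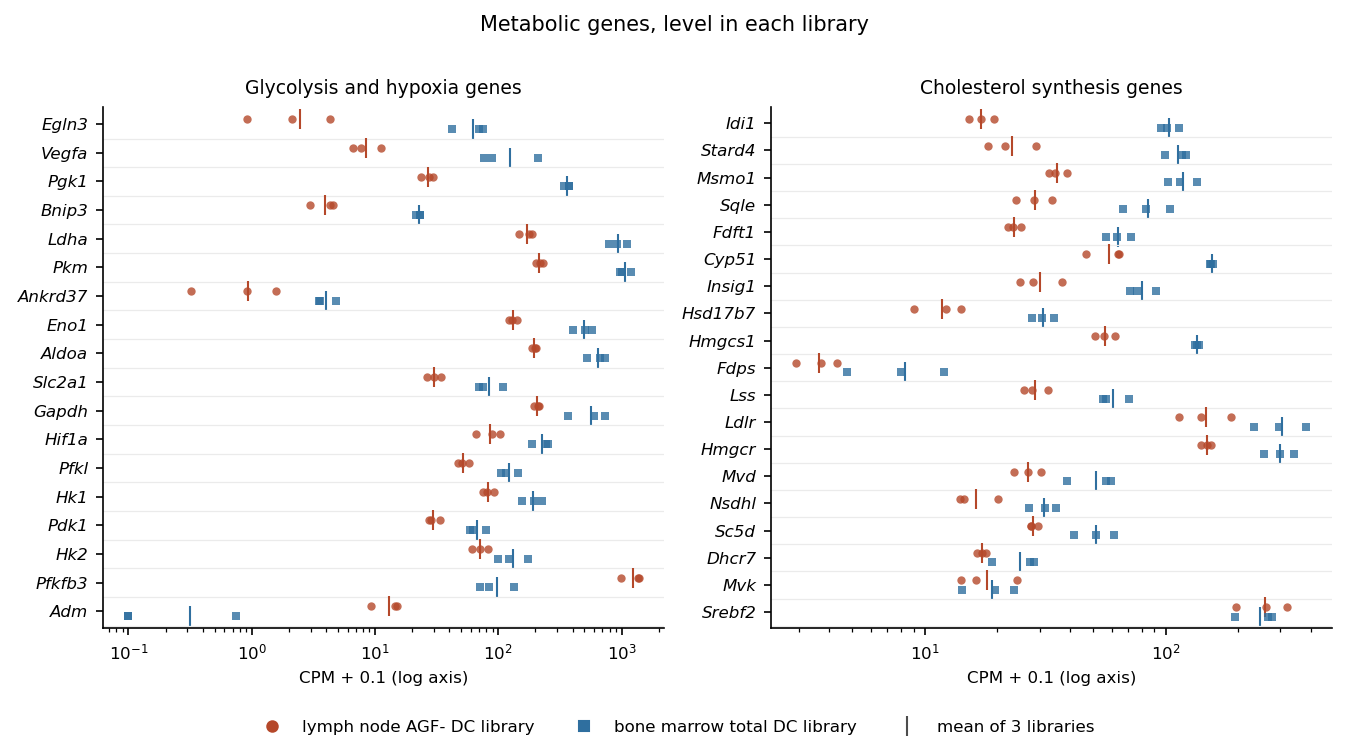
Level of the 18 glycolysis and hypoxia genes and 19 of the 20 tested cholesterol synthesis genes in each library, on a log axis of CPM plus 0.1, ordered by log2 fold change, with circles for lymph node AGF- DCs, squares for marrow total DCs and ticks for group means. In both panels circles lie left of squares for nearly every gene, with Pfkfb3 and Adm to the right at the bottom of the left panel.

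Lysosomal genes gave 3 higher, 10 lower and 8 not passing of 21 (median -0.23, between -0.41 without marrow replicate 3 and -0.10 without marrow replicate 1), and 8 higher and 9 lower with a median of 0.007 when scaled by library size alone. Lamp2, a lysosomal membrane protein, had 179.7, 231 and 234 CPM in lymph node AGF- DCs, against 519.5, 622 and 638 CPM in marrow total DCs (log2 fold change -1.46 ± 0.16, adjusted p = 1.74e-07, edgeR). Tfeb, the regulator of lysosome biogenesis, and Ctsh, a cathepsin, were higher (2.52 ± 0.26 and 0.99 ± 0.14). All 10 tested of 13 mitochondrially encoded genes were lower (median -1.57). The cytochrome oxidase gene mt-Co1 had 1709, 1726 and 2569 CPM in lymph node AGF- DCs, against 5106, 5591 and 5483 CPM in marrow total DCs, and mt-Nd5, of complex I, had 968, 1077 and 2050.2 against 3333, 3710 and 3949 CPM in the same order, with lymph node replicate 3 the highest of its group for both (-1.43 ± 0.18 and -1.42 ± 0.26).

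Cell cycle and DNA replication genes were lower in 29 of 34 members, higher in 1 and did not pass in 4 (median -1.22). Ccnb1, the mitotic cyclin B1, had 3.12, 2.63 and 4.24 CPM in lymph node AGF- DCs, against 25, 36.2 and 30.6 CPM in marrow total DCs. Bub1, a kinase of the spindle checkpoint, and Top2a, topoisomerase II alpha, fell, with log2 fold changes of -2.38 ± 0.25 and -1.79 ± 0.23. Mki67, the proliferation marker Ki-67, had 106, 132 and 149 CPM in lymph node AGF- DCs, against 223, 382 and 343 CPM in marrow total DCs (log2 fold change -1.29 ± 0.25, adjusted p = 0.000154, edgeR). The single rise was Cdt1, a licensing factor of replication origins, with 22.5, 20.2 and 24.8 CPM in lymph node AGF- DCs, against 5.56, 7.4 and 6 CPM in marrow total DCs (log2 fold change 1.83 ± 0.29, adjusted p = 1.89e-05, edgeR).

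Immediate early genes, which respond to stimuli within minutes, gave 12 higher, 6 lower and 1 not passing of 19 (median 1.34). Fos, an AP-1 subunit, had 37.4, 101 and 89.7 CPM in lymph node AGF- DCs, against 2.99, 3.7 and 7.74 CPM in marrow total DCs. Dusp2, a phosphatase of MAP kinases, and the nuclear receptor gene Nr4a1 had 50.5, 39.7 and 39.5 against 3.21, 0.617 and 0.774 CPM and 21.8, 32 and 28 against 1.5, 1.03 and 0.581 CPM, lymph node AGF- DCs first. No groups overlapped (3.96 ± 0.64, 4.82 ± 0.38 and 4.71 ± 0.46), and the AP-1 subunit gene Junb rose by 2.46 ± 0.21. Nr4a3, of the same family as Nr4a1, went the other way, with 52.5, 97.4 and 53.2 CPM in lymph node AGF- DCs, against 1258, 1036 and 1535 CPM in marrow total DCs (log2 fold change -4.23 ± 0.27, adjusted p = 1.50e-10, edgeR). Ier3 and the zinc finger factor gene Egr2 fell, with log2 fold changes of -3.69 ± 0.44 and -2.71 ± 0.47. Among 10 heat shock genes, 2 were higher, 7 lower and 1 did not pass (median -1.21). Hspa1a, an inducible Hsp70 with the near-identical copy Hspa1b, had 7.35, 14 and 9.76 CPM in lymph node AGF- DCs, against 0.642, 1.23 and 0.387 CPM in marrow total DCs (log2 fold change 3.75 ± 0.90, adjusted p = 0.00144, edgeR), while Hsph1, Hspd1 and Hsp90ab1, chaperones of the cytosol and mitochondria, fell, with log2 fold changes of -1.94 ± 0.28, -1.84 ± 0.26 and -1.36 ± 0.18. Without replicate 2 of every group, 1 heat shock gene was higher. Enzymatic digestion is stated for the lymph node cells only, and its part in these differences was not tested.

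The difference between tissues was also set against that of the reporter-positive (AGF+) cells of the same genotype, which share no library with the 6 compared here. AGF+ cells came from the same lymph node gate and from a B220-CD24+ marrow fraction without or low in CD11b, so their marrow gate differs too. The interaction, which tests whether the 2 tissue differences differ, passed an adjusted p under 0.05 in 21% of genes, 11.2% more positive and 9.75% more negative in the comparison of AGF- with total DCs. Between the AGF+ cells of the tissues 54.2% of genes differed. Of the 12 leading rises, 11 had a fold change above 0 in AGF+ cells as well, and 8 passed the interaction. All 12 leading falls were below 0 in AGF+ cells, and 5 passed the interaction. These genes were chosen for their large folds in a comparison that is 1 side of the interaction, which favours an interaction of the same sign, so the counts are a description only. Ripor2 rose by 5.73 ± 0.27 here, while its log2 difference in AGF+ cells was 0.18 ± 0.20 (interaction 5.55 ± 0.34, adjusted p = 9.81e-10, edgeR). Il2rb was at 5.63 ± 0.75 here and -1.58 ± 0.88 in AGF+ cells (interaction 7.20 ± 1.16, adjusted p = 0.000123, edgeR). Ccl24 was lower in lymph node in both, at -8.99 ± 0.37 here and -9.49 ± 0.43 in AGF+ cells, and its interaction did not pass (0.51 ± 0.81, adjusted p = 0.73, edgeR).

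Lists differed in how many members passed the interaction. It was more positive for 30 of 34 cell cycle genes, whose median log2 fold change was -1.22 here and -2.92 in AGF+ cells, so that the fall in lymph node was smaller here. B cell genes passed in 13 of 15 (median 4.51 here, -0.40 in AGF+ cells), T and NK cell genes in 10 of 19 (3.42 and -0.96) and pDC genes in 13 of 16 (2.07 and -1.89), all more positive. Interferon-stimulated genes were more positive in 10 of 26 (medians 0.12 here and -0.995 in AGF+ cells). Costimulation ligands were more negative in 8 of 18, with medians of -0.94 here and 0.03 in AGF+ cells, and innate sensors in 9 of 22. Glycolysis genes were lower in lymph node in both, with medians of -1.61 here and -1.37 in AGF+ cells and 2 of 18 members past the interaction threshold. Mitochondrially encoded genes had medians of -1.57 here and -1.79 in AGF+ cells.

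**Figure D5:**
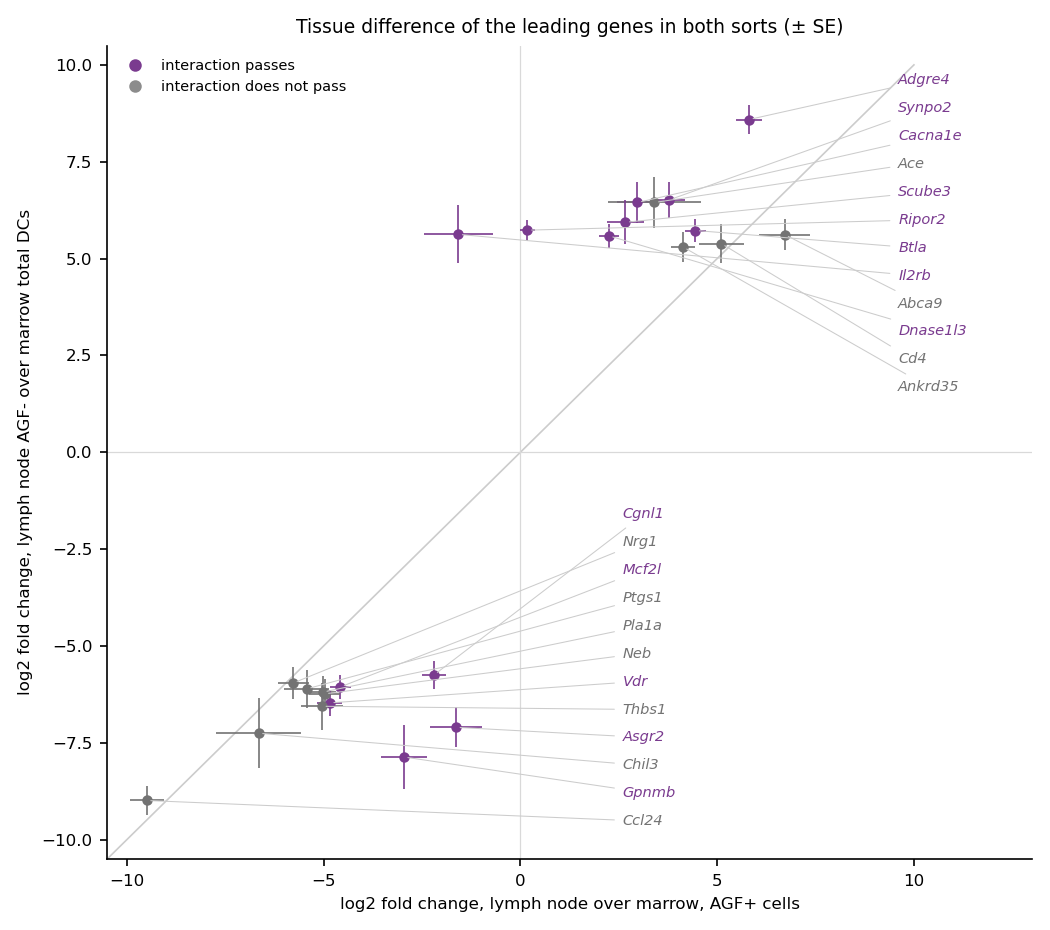
Log2 fold change between tissues of the 24 leading genes in AGF+ cells (horizontal) and in the comparison of lymph node AGF- with marrow total DCs (vertical), with standard errors, and a diagonal where both are equal. Purple genes passed the interaction test; Ripor2 and Il2rb lie near or left of 0 on the horizontal axis, while Ccl24 lies close to the diagonal.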

How the data were processed

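RNA of the sorted cells was read paired-end, and the deposited table holds read counts for 55471 genes, which the authors did not normalize. Per the submitters' processing notes, the tools were HTSeq 0.11.2, STAR 2.7.3a, edgeR 3.38.1, Picard 2.21.1, fastp 0.20.0 and SAMtools 1.9, on build mm10 (GRCm38). Not given in the sources used here are the treatment of multimapped reads, the strand setting and the annotation release, so overlapping genes, such as Aire and Dnmt3l, and paralogues are uncertain. The normalized table was not used.

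Counts of all 21 libraries in 7 groups were fitted with edgeR 4.0.16 in R 4.3.3 (TMM, expression filter by group, quasi-likelihood F test, 2-sided, Benjamini-Hochberg over 17265 genes), with contrasts of lymph node AGF- against marrow total DCs and its interaction with AGF+ cells. The other groups share the estimate of spread. Floors of 3 counts and exact 95% binomial intervals cover counting error only. Replicate libraries differed by more than counting noise (chi-square per degree of freedom 6.27 to 14.7). Symbols and coordinates came from GENCODE vM21; 241 IDs with 0.0139% of counts had none. The procedure was also run on counts simulated from the fitted spread with 200 genes changed. With so few changed genes, that run could not test the scaling where most genes differ, and nothing is read from it. Alternatives were DESeq2 1.42.0 size factors and Wald test, library size alone, no filter, at least 10 counts in 3 libraries, a 1.5-fold null, an adjusted p under 0.01, limma 3.58.1 voom and a fit of 6 libraries with and without the replicate block. Each of the 6 compared libraries was also left out singly, and replicate 2 of all 7 groups was left out together.

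The lists and libraries were chosen with earlier results of these data known. Genes named are the 12 largest rises and falls passing the filters stated above (without overlap of replicates, predicted genes, pseudogenes or receptor segments), Aire, the gate genes and up to 6 members of each list with the smallest p or its defining role. Genes outside this rule were chosen after their values were seen: Adm, Aldh1a2, Apol7c, Ccr7, Cd274, Cdt1, Clec4n, Csf2rb, Ctsl, Cxcl9, Egr2, Eno1, Fos, Fscn1, Gcsam, H2-DMb2, Hspa1a, Ifi205, Ifi30, Il15ra, Il7r, Irf8, Mki67, Ms4a1, Ncr1, Nlrp3, Relb, Sirpa, Tcf4, Thy1, Tlr7, Xcl1, Zbtb46 and mt-Nd5. Some genes of the lists are counted but not reported by name here.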

Additional observations from a re-analysis of the deposited data

Results flagged for a closer look

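For 13 of the 24 leading genes the difference between lymph node AGF- DCs and marrow total DCs itself differed from that between lymph node and marrow AGF+ cells, by edgeR's interaction test at an adjusted p under 0.05, which 21% of all genes tested passed. The 24 were chosen for their large folds in the comparison that is 1 side of this interaction, which favours an interaction of the same sign, so nothing is read from 13 of 24. The interaction was positive for Il2rb at 7.20 ± 1.16, Ripor2 at 5.55 ± 0.34, Cacna1e at 3.47 ± 0.86, Dnase1l3 at 3.34 ± 0.39, Scube3 at 3.27 ± 0.78, Adgre4 at 2.78 ± 0.71, Synpo2 at 2.73 ± 0.55 and Btla at 1.28 ± 0.42 on the log2 scale. It was negative for Asgr2 at -5.46 ± 0.98, Gpnmb at -4.90 ± 1.10, Cgnl1 at -3.55 ± 0.46, Vdr at -1.63 ± 0.44 and Mcf2l at -1.48 ± 0.42. Il2rb had the opposite sign of fold change in AGF+ cells, at -1.58 ± 0.88, but did not pass there, nor did Ripor2 at 0.18 ± 0.20, and the other 11 had the same sign in both. The marrow gates of the 2 sorts differ as well as the reporter, and which of them moves with the interaction cannot be told apart.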

How the results depend on the processing

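No gene called both in the main fit and under 1 of 17 other settings changed sign between them. Of the 9692 main calls, 5653 were called again against a 1.5-fold change and 9662 with DESeq2 size factors in edgeR, the extremes of the settings. The sign of calls that were lost was checked for the named genes only. The test against a 1.5-fold change called 3013 higher and 2640 lower, and 1833 genes in the interaction, and an adjusted p under 0.01 left 2111 genes in the interaction and 3745 higher and 3773 lower. Without replicate 2 of every group, 1783 genes passed the interaction. Leaving out 1 library at a time gave 4143 to 4852 higher and 4212 to 4806 lower genes, of which 8190 to 8880 in all were among the 9692. Of 179 named genes, 169 kept their side of the threshold and their direction under all settings that could be run. Against 1.5-fold, Ccr7 (adjusted p = 0.0669), H2-DMb2 (0.0652), H2-K1 (0.164) and Zbtb46 (0.205) did not pass, and by limma voom Hspa1a did not (0.0503). The calls lost against 1.5-fold follow from the stricter null, and for Hspa1a the cause was not tested. Tcf4 did not pass by library size alone (-0.25, 0.157), against 1.5-fold (0.715) or without replicate 2 of every group (-0.34, 0.196). Irf8, not called, passed without the filter on low counts (0.50, 0.00223), with the replicate block (0.53, 0.0224) and without marrow replicate 1. Itgax, which passed nowhere, ranged from -0.11 to 0.25 with 1 library left out, with -0.06 without lymph node replicate 1, -0.03 without marrow replicate 2 and -0.11 without marrow replicate 3, and was -0.02 without replicate 2 of every group. Thy1 was 0.30 without replicate 2 of every group (0.589), ranged from -1.44 to -0.20 with 1 library left out, and passed without the filter, by voom (-1.96, 0.0102) and without marrow replicate 1, and Il7r passed without the filter. By voom the macrophage median was -0.50. Same-numbered libraries of the groups deviated together with r = 0.130, 0.0407 and 0.104, and each library correlated best with its own number. Replicate 2 was also the library with high Xist in every group. Whether same-numbered libraries share mice or a batch was not tested, and the main test did not take the numbers as pairs. A fit of the 6 libraries with the replicate block called 8368 genes and without it 8014. At 4.49 to 5.17 counts per CPM, genes below about 1 CPM rest on a few counts.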
